A study of Mus musculus with 22 samples.

Results

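The 10 genes described here are Lbx1, Lmx1b, Tlx3, Prrxl1, Pou4f1, Ebf1, Ebf2, Ebf3, Maf and Mafa. All 10 encode transcription factors grouped under the excitatory lineage of the spinal dorsal horn, but not all are confined to it. They were taken by symbol from the table of normalized values of a study of sorted mouse spinal nuclei, and all 10 were found among its 21363 genes. None was absent, and Mafa was near the floor, with 0 to 13 reads per GFP+ library. The mice, of the strain pDyn-Sun1-GFP and of both sexes, carry a nuclear envelope protein fused to GFP as a reporter of prodynorphin (Pdyn), the precursor of the dynorphin opioid peptides. The GFP+ groups are nuclei of the pDyn lineage from the lumbar dorsal horn at postnatal day 7 (P7, 4 libraries), P21 (3 libraries) and P80 (4 libraries). The GFP- groups are the remaining, unidentified nuclei of the same tissue at P7 (4 libraries), P21 (3 libraries) and P80 (4 libraries). Both samples of an animal, 5000 nuclei each from 11 mice in all, carry the transgene, so no group lacks it. The labels leave unsaid whether the reporter follows earlier promoter activity or current activity alone, and the GFP- group holds neurons and glia together.

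Newborn neurons of the dorsal horn follow an excitatory, glutamatergic or an inhibitory, GABAergic and glycinergic course, and homeodomain factors acting after the last cell division are central to that choice. Lbx1 is made by late-born neurons of both courses, Tlx3 and Lmx1b hold cells to the glutamatergic one, and Pax2 with Lhx1 and Lhx5 accompanies the inhibitory one. Dorsal horn neurons that make dynorphin are mostly inhibitory, with an excitatory minority.

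Pou4f1, Ebf3 and Ebf1 were higher in GFP+ than in GFP- nuclei, and Tlx3, Ebf2, Maf and Mafa were lower. Averaged over the ages, Pou4f1 differed by 2.73 ± 0.21 on the log2 scale (± SE), Ebf3 by 1.35 ± 0.10 and Ebf1 by 0.96 ± 0.13. On the same scale Mafa differed by -2.09 ± 0.32, Maf by -1.45 ± 0.10, Ebf2 by -1.33 ± 0.13 and Tlx3 by -1.06 ± 0.21. Lbx1, Prrxl1 and Lmx1b did not pass the test. The 3 family members Ebf1, Ebf2 and Ebf3 thus did not move together, nor did the glutamatergic selectors Tlx3 and Lmx1b. A gene was called when its Benjamini-Hochberg adjusted p over 18614 genes was under 0.05 in a limma fit to log2(normalized read count + 1), two-sided. By that rule 7 of the 10 genes were called, 3 higher and 4 lower, where 48.2% of all tested genes were called, 22.6% higher and 25.5% lower.

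The promoters of the genes with the highest fold changes, Pou4f1 and Ebf3, and of the selector that fell, Tlx3, are shown as the 250 bases before the RefSeq start (GRCm38.p6), each on the minus strand and written 5′ to 3′. Capitals mark an E-box (CANNTG, the core bound by helix-loop-helix factors) or a CCAAT box (CCAAT), searched on both strands with every other motif named here; in these 3 windows no 2 matches overlapped.
Pou4f1, chr14:104468000-104468249: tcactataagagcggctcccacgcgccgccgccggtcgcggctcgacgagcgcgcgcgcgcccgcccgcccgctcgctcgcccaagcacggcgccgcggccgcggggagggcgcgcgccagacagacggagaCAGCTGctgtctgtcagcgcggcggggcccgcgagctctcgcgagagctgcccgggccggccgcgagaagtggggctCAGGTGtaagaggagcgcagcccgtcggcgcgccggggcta
Ebf3, chr7:137314446-137314695: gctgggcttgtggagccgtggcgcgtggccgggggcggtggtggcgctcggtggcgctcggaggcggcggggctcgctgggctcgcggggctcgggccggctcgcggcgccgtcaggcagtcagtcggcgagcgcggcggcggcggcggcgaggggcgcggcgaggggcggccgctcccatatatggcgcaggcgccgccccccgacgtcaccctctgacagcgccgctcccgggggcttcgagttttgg
Tlx3, chr11:33203589-33203838: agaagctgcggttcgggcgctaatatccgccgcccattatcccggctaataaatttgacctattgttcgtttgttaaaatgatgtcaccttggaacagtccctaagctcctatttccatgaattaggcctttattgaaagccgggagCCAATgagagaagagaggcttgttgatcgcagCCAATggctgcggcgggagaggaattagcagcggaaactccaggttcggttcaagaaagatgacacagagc
The Pou4f1 window held 2 E-boxes, CAGCTG and CAGGTG, starting 118 and 41 bases before the start, and its GC content was 78.0%. The Ebf3 window held none of the motifs and had a GC content of 80.0%. The Tlx3 window held 2 CCAAT boxes, 103 and 71 bases before the start, no E-box, and a GC content of 48.8%. An E-box stood in 66.2% and a CCAAT box in 33.8% of all 32851 windows of the same length. RefSeq windows were matched for 6 of the 10 genes (Lmx1b, Tlx3, Ebf1, Ebf3, Prrxl1 and Pou4f1). The palindrome of the Ebf family (TCCC and GGGA with any 2 bases between), TAATTA (a homeodomain core) and TGCTGAC (the core of the Maf site) were in none of their 7 windows. Over all windows they were found in 0.779%, 4.84% and 3.81%, in that order. Lbx1, Ebf2, Maf and Mafa are named only.

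The 22 libraries held 4244987 to 10849169 reads counted to genes, and 1 read was worth 0.547 to 1.31 in normalized read count. Pdyn, the gene that the reporter is named after, lay between 405 and 663 in GFP+ libraries and between 0 and 15.7 in GFP- libraries. The mean log2 level of 14 pan-neuronal genes was 10.07 to 10.30 in GFP+ libraries. It was 9.42 to 9.83 in 8 of the GFP- libraries and 8.83 to 8.92 in the other 3 (library codes ES8 at P80, ES12 and ES16 at P21), which stood apart. Genes of glia, vessels and meninges were lower in GFP+ nuclei: all 10 oligodendrocyte, 6 precursor and 8 astrocyte markers were called lower, as were 9 of 10 microglial, 9 of 10 endothelial and mural and 7 of 8 meningeal markers. Among the listed markers of primary sensory neurons, Avil, Prph, Trpv1, Scn10a, P2rx3 and Calcb had medians under 10 in both populations. Calca and Tubb3, on the same list, were above that and were called higher in GFP+ nuclei. The median of Calca was 27.4 in GFP+ and 14.04 in GFP- libraries, and that of Tubb3, also a pan-neuronal gene, 217.6 in GFP+ and 144.4 in GFP- libraries. In such bulk samples, fewer nuclei of a type and less RNA per nucleus cannot be told apart. P-values of the fits measure the spread between the libraries of a group, each from a different mouse per the labels. The columns could not be joined to animals, so what the libraries of an animal share was not taken out.

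**Figure D1:**
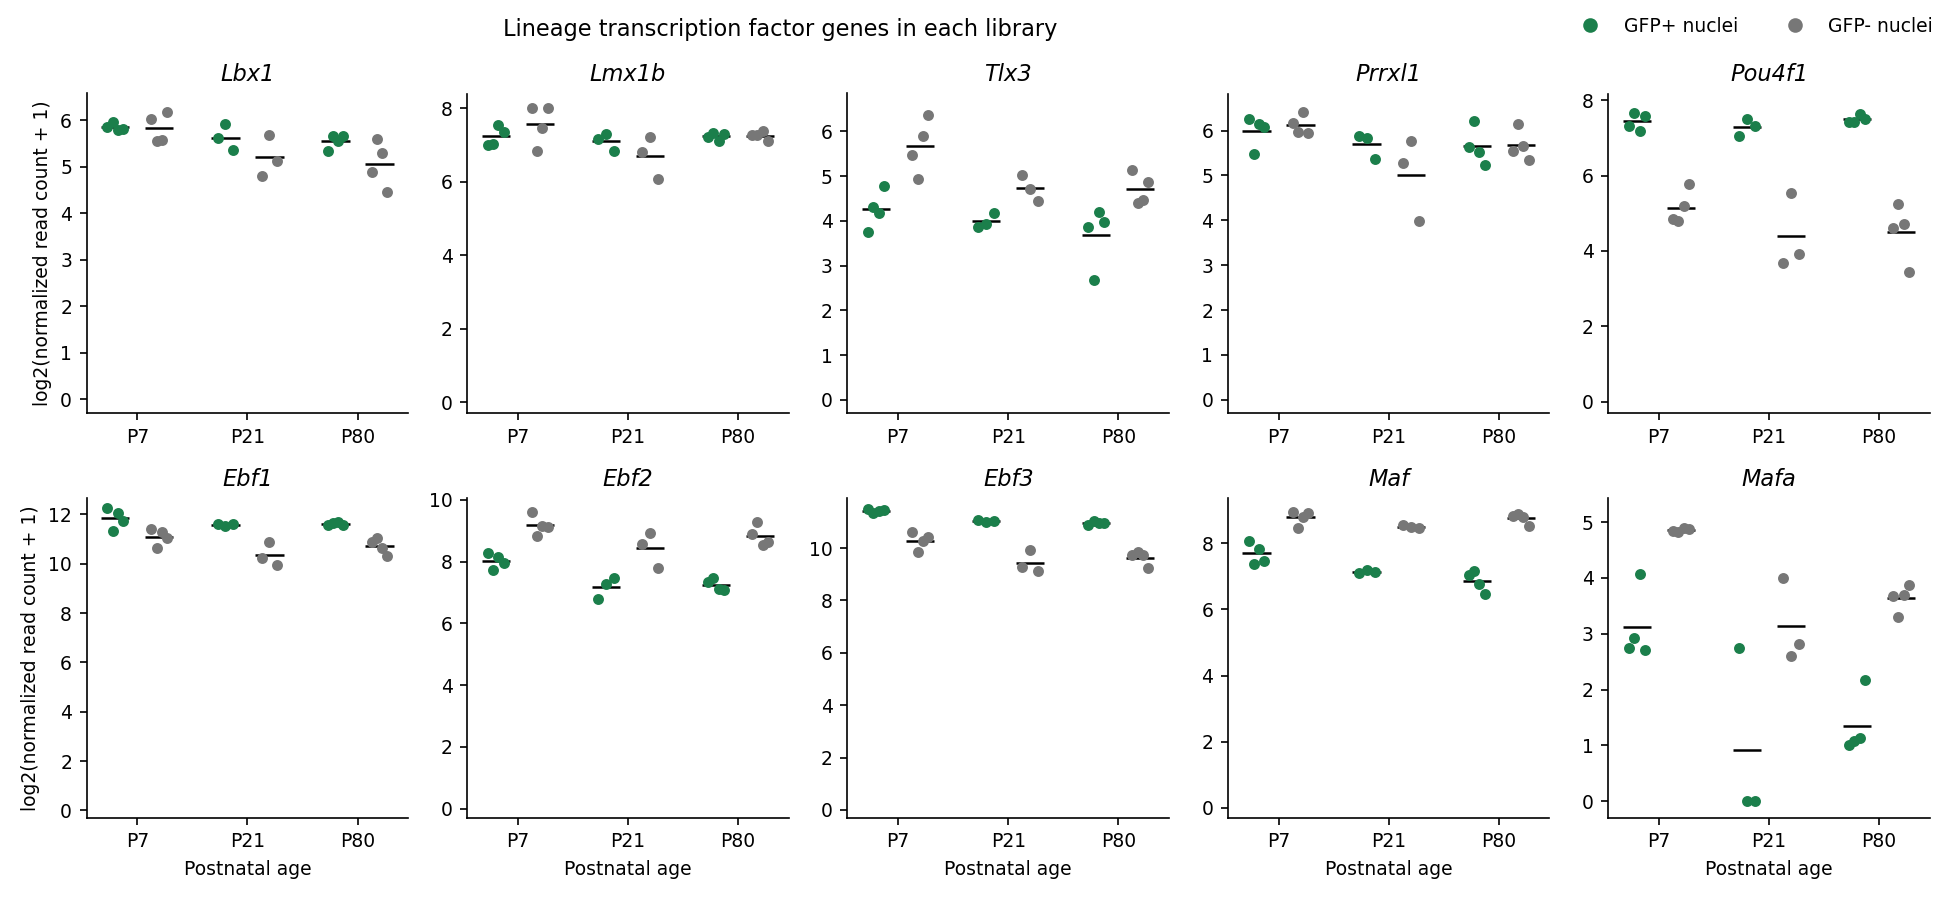
Level of each gene in each of the 22 libraries, as log2(normalized read count + 1), by postnatal age. Green points are GFP+ libraries, grey points GFP- libraries, and black lines the group means. Pou4f1 and Ebf3 points lie above, and Tlx3, Ebf2 and Maf points below, those of GFP- libraries at all 3 ages.

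Lbx1, the homeodomain factor of both late-born courses, did not pass the test between the populations. It ranged from 39.5 to 61.7 with a median of 49.6 in the 11 GFP+ libraries, against 20.8 to 71.8 with a median of 45.98 in the 11 GFP- libraries. At P7 the means were 56.98 ± 3.38 in GFP+ and 56.97 ± 12.9 in GFP- libraries (SD, n = 4 each), at P21 48.97 ± 9.59 in GFP+ and 37.1 ± 12.2 in GFP- libraries (n = 3 each), and at P80 46.1 ± 4.697 in GFP+ and 33.7 ± 11.4 in GFP- libraries (n = 4 each). The libraries overlapped at each age. The fold change averaged over ages was 0.32 ± 0.15 (adjusted p = 0.0874, limma). It was called when the GFP- library ES14 or ES4 was left out (lowest adjusted p = 0.0306), and was 0.09 ± 0.15 without ES8, ES12 and ES16.

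Lmx1b, the LIM homeodomain factor that keeps dorsal horn neurons glutamatergic, gave the smallest difference of the 10. It ranged from 114 to 188 with a median of 148 in GFP+ libraries, against 66.2 to 257 with a median of 153 in GFP- libraries. The P80 values were 148, 159.6, 137 and 158 in GFP+ libraries and 153, 153, 167 and 138 in GFP- libraries, and they interleaved. Its fold changes were -0.34 ± 0.23 (P7), 0.41 ± 0.27 (P21) and -0.02 ± 0.23 (P80), none called, and 0.02 ± 0.14 averaged over ages (adjusted p = 0.937, limma). With the ages pooled, GFP+ libraries spread less widely than GFP- ones, with an SD of 20.3 in GFP+ libraries against 57.3 in GFP- libraries (n = 11 each). These SDs include differences between ages. Within ages the SD was 28.6 in GFP+ and 69.3 in GFP- libraries at P7, and 21.6 in GFP+ and 40.9 in GFP- libraries at P21. At P80 it was much alike, 10.7 in GFP+ and 11.9 in GFP- libraries.

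Tlx3, the homeodomain selector of the glutamatergic course, fell in GFP+ nuclei. At P7 it had 12.5, 18.9, 17.2 and 26.6 in GFP+ libraries, against 43.4, 29.8, 58.2 and 81.2 in GFP- libraries. At P21 it had 13.6, 14.2 and 17.04 in GFP+ libraries, against 31.7, 25.3 and 20.8 in GFP- libraries. At P80 it had 13.5, 5.35, 17.4 and 14.8 in GFP+ libraries, against 33.95, 20.1, 21.1 and 28.04 in GFP- libraries. The libraries did not overlap at any of the 3 ages, although at P21 and P80 the highest GFP+ and lowest GFP- libraries were close. The fold change was -1.41 ± 0.35 at P7 (adjusted p = 0.00643, limma), -0.74 ± 0.40 at P21 (adjusted p = 0.162) and -1.04 ± 0.35 at P80 (adjusted p = 0.0283). The P80 call was lost without ES3, ES2 or ES8 (highest adjusted p = 0.135) and when only the P80 libraries were fitted (adjusted p = 0.0633). In the authors' deposited table Tlx3 did not pass at P80 (Wald test, adjusted p = 0.154). Averaged over ages the adjusted p in limma was 0.000242.

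The ratio of Lmx1b to Tlx3 within a library, which needs no scaling between libraries, therefore differed between populations. Its log2 value averaged 2.98 ± 0.39 in GFP+ and 1.91 ± 0.43 in GFP- libraries at P7 (SD, n = 4 each), 3.12 ± 0.38 in GFP+ and 1.97 ± 0.47 in GFP- libraries at P21 (n = 3 each), and 3.56 ± 0.76 in GFP+ and 2.55 ± 0.41 in GFP- libraries at P80 (n = 4 each). The difference, GFP+ minus GFP-, was 1.08 (exact permutation within ages, two-sided, p = 4.08e-05 and 5.44e-05 after adjustment over 4 ratios). The 4 ratios given here were chosen after the values of their genes were seen, so their p-values add no independent evidence. The relabelling also ignored which libraries came from the same animal.

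Prrxl1, the paired homeodomain factor of excitatory dorsal horn and nociceptive sensory neurons, overlapped at each age. It ranged from 36.6 to 74.98 with a median of 55.9 in GFP+ libraries, against 14.8 to 83.8 with a median of 53.1 in GFP- libraries. Its fold changes were -0.13 ± 0.30 (P7), 0.69 ± 0.35 (P21) and -0.02 ± 0.30 (P80), none called, and 0.18 ± 0.19 averaged over ages (adjusted p = 0.456, limma). The P21 value turned on the GFP- libraries: it was called without ES14 (1.06, adjusted p = 0.0212) and was -0.07 ± 0.36 without ES8, ES12 and ES16, when ES14 alone stands for its group and is assumed to vary like the others.

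Pou4f1, a POU homeodomain factor of sensory neurons and of embryonic excitatory dorsal interneurons, had the highest fold change of the 10. At P7 it had 159, 202, 143 and 191 in GFP+ libraries, against 27.7, 26.6, 35.5 and 53.8 in GFP- libraries. The P21 values were 132, 179.6 and 159 in GFP+ libraries, against 11.9, 45.5 and 14.2 in GFP- libraries. Pou4f1 at P80 stood at 170.4, 171, 196 and 181 in GFP+ libraries, against 23.5, 36.9, 25.1 and 9.95 in GFP- libraries. Each GFP+ library was above every GFP- library, with 132 the lowest GFP+ and 53.8 the highest GFP- value. The mean was 171 ± 21.8 in GFP+ libraries and 28.2 ± 13.8 in GFP- libraries (SD, n = 11 each), and the averaged fold change of 2.73 ± 0.21 had an adjusted p of 1.01e-09 (limma). Without ES8, ES12 and ES16 it was 2.23 ± 0.14 over all ages and 1.75 ± 0.32 at P21, against 2.91 ± 0.41 at P21 with them. Calca, the sensory neuron peptide gene, and Tubb3, a pan-neuronal gene on the same list, were the 2 of 4 tested sensory neuron markers called higher in GFP+ nuclei. The summed level of the 8 listed sensory markers was 220.2 to 496 in GFP+ and 125 to 293 in GFP- libraries, and Tubb3 carried most of it, at 173 to 415 in GFP+ and 73.8 to 247 in GFP- libraries. Without Tubb3 the sum of the other 7 was 32.1 to 104 in GFP+ and 36.7 to 58.2 in GFP- libraries, which overlapped, and its part in the Pou4f1 difference was not tested.

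Ebf1, Ebf2 and Ebf3 encode helix-loop-helix factors of 1 family that bind a shared palindromic site, act in neuronal differentiation and, for Ebf1, in B cell and vascular mural lineages too. In these nuclei Ebf1 and Ebf3 were higher in GFP+ libraries and Ebf2 was lower. Relative to pan-neuronal genes, as given below, Ebf1 kept a positive sign but did not pass the test.

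Ebf3 separated the populations at all ages. At P7 it had 2872, 2618, 2763 and 2792 in GFP+ libraries, against 1579, 912, 1233 and 1366 in GFP- libraries. The P21 values were 2123, 2032 and 2074 in GFP+ libraries, against 627, 965 and 549.7 in GFP- libraries. Ebf3 at P80 stood at 1865, 2094, 1972 and 1974 in GFP+ libraries, against 845, 915, 860.3 and 604 in GFP- libraries. The lowest GFP+ library of any age, at 1865, was above the highest GFP- library, at 1579. The averaged fold change of 1.35 ± 0.10 had an adjusted p of 3.09e-10 (limma) and was 1.14 ± 0.08 without ES8, ES12 and ES16. An exon of Ebf3 overlaps that of Gm45278 on the other strand in GENCODE, and the labels do not say whether reads were counted by strand.

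Ebf1 had the highest level per length of the 10 in both populations. At P7 it had 4866, 2571, 4323 and 3374 in GFP+ libraries, against 2701, 1588, 2499 and 2134 in GFP- libraries. At P21 it had 3089.7, 2991 and 3114 in GFP+ libraries, against 1219, 1897 and 984 in GFP- libraries. At P80 it had 3036, 3265, 3342 and 3068 in GFP+ libraries, against 1896, 2134, 1580.3 and 1274 in GFP- libraries. The libraries overlapped at P7, where the lowest GFP+ library was under the highest GFP- one, and not at P21 or P80. The fold change was 0.75 ± 0.21 at P7 (adjusted p = 0.0142, limma), 1.22 ± 0.24 at P21 (adjusted p = 0.000545) and 0.91 ± 0.21 at P80 (adjusted p = 0.0019). Its P7 call was lost without ES17 or ES20 (highest adjusted p = 0.0697) and with the P7 libraries alone (adjusted p = 0.0725). These fits do not pair the populations of an animal. In the authors' deposited table the P7 difference of Ebf1 was 0.75 with an SE of 0.064 (Wald test, adjusted p = 1.5e-29). The P21 fold change was 0.69 ± 0.30 without ES8, ES12 and ES16 and did not pass (adjusted p = 0.158). Beside it, the summed level of the 10 endothelial and mural markers was 182 to 533 in GFP+ and 461 to 5954 in GFP- libraries, the other way round, and its part was not tested.

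Ebf2 was lower in GFP+ nuclei at all ages. At P7 it had 309, 212, 281 and 249 in GFP+ libraries, against 785, 453, 569 and 562 in GFP- libraries. The P21 values were 109, 156 and 177 in GFP+ libraries, against 377, 491 and 222 in GFP- libraries. Ebf2 at P80 stood at 159.99, 176, 137 and 135 in GFP+ libraries, against 473, 622, 373 and 398 in GFP- libraries. No age showed overlap. The averaged fold change of -1.33 ± 0.13 had an adjusted p of 4.41e-08 (limma), and it was -1.52 ± 0.13 without ES8, ES12 and ES16. Ebf2 shares exonic sequence with Gm10860 on the other strand, so its reads are uncertain in the way given for Ebf3. The meningeal markers, 8 genes, summed to 74.6 to 419 in GFP+ and 394 to 3701 in GFP- libraries, and their part in the Ebf2 difference was not tested.

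The same divergence within the Ebf family can be read as ratios within single libraries. Their averaged differences equal by construction the differences of the fold changes given above, so they restate those results. The permutation exchanged libraries freely within an age and did not keep the libraries of an animal paired. The log2 ratio of Ebf3 to Ebf2 was 3.21 to 4.27 in GFP+ libraries and 0.56 to 1.31 in GFP- libraries, with no overlap. It averaged 3.40 ± 0.18 in GFP+ and 1.10 ± 0.13 in GFP- libraries at P7 (SD, n = 4 each), 3.84 ± 0.38 in GFP+ and 1.004 ± 0.29 in GFP- libraries at P21 (n = 3 each), and 3.70 ± 0.17 in GFP+ and 0.80 ± 0.30 in GFP- libraries at P80 (n = 4 each). The difference was 2.68 (exact permutation within ages, p = 2.04e-05, the smallest that 98000 relabellings can give two-sided; adjusted over the 4 ratios, 4.08e-05). For Ebf1 to Ebf2 the difference was 2.29, with the same p and adjusted p. Ebf3 to Ebf1 moved least, by 0.39 (exact permutation, p = 8.16e-05, adjusted 8.16e-05), and its libraries overlapped at P7.

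**Figure D2:**
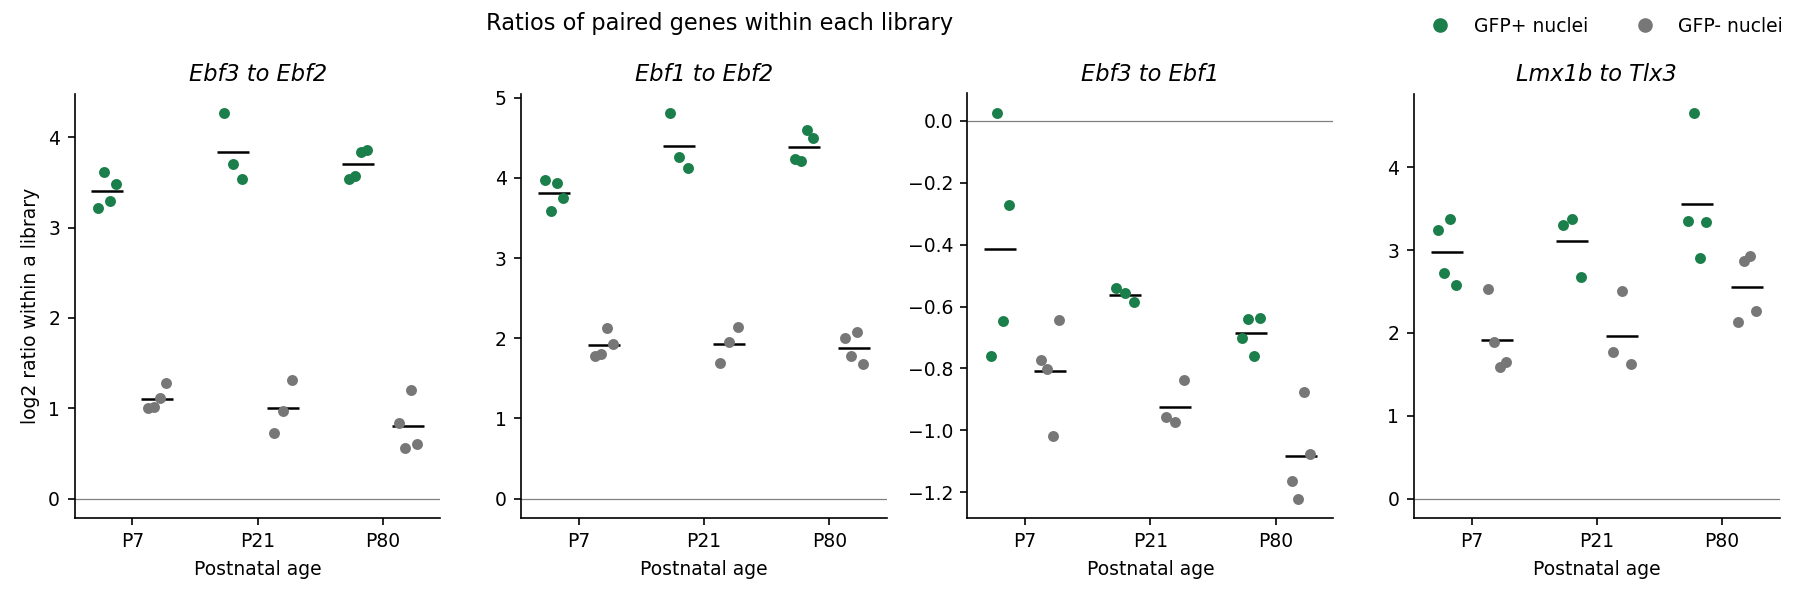
Log2 ratio of paired genes within each library, by postnatal age; green points are GFP+ libraries, grey points GFP- libraries, black lines group means, and the grey line equal values. The Ebf3 to Ebf2 ratio lies between 3.21 and 4.27 in GFP+ and between 0.56 and 1.31 in GFP- libraries.

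Maf and Mafa encode large Maf factors, leucine zipper proteins known in the deep dorsal horn and in touch-sensing sensory neurons. Both were lower in GFP+ nuclei. At P7 Maf had 269, 165, 226 and 177 in GFP+ libraries, against 489.9, 352, 446 and 484 in GFP- libraries. At P21 it had 136, 145 and 138 in GFP+ libraries, against 371, 360.4 and 349 in GFP- libraries. At P80 it had 131, 141, 107 and 87.9 in GFP+ libraries, against 448, 471, 442 and 368 in GFP- libraries. The highest GFP+ library, at 269, was under the lowest GFP- library, at 349. Its fold changes were -1.09 ± 0.16 (P7), -1.36 ± 0.18 (P21) and -1.897 ± 0.16 (P80), and averaged over ages its adjusted p was 9.59e-11 (limma). The 10 microglial markers summed to 209 to 350.5 in GFP+ and 564 to 2950.4 in GFP- libraries, and Tmem119, Aif1, Trem2, Siglech, C1qa and C1qb had medians under 10 in GFP+ libraries; the part of microglia in the Maf difference was not tested. Without ES8, ES12 and ES16, the Maf fold change was -1.48 ± 0.11. Maf overlaps Gm15655 on the other strand.

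Mafa was near the floor in GFP+ nuclei. It passed the filter on low values only through GFP- libraries, the group where it was higher. At P7 it had 5.68, 6.59, 15.9 and 5.47 in GFP+ libraries, against 27.7, 27.4, 28.6 and 28.3 in GFP- libraries. The P21 values were 5.68, 0 and 0 in GFP+ libraries, against 14.9, 5.06 and 6.02 in GFP- libraries. Mafa at P80 stood at 1.04, 1.07, 1.24 and 3.48 in GFP+ libraries, against 11.8, 8.95, 12.03 and 13.6 in GFP- libraries. The libraries did not overlap at P7 and P80, and at P21, where ES13 and ES15 had no read, they overlapped through ES11. The fold change was -1.75 ± 0.53 at P7 (adjusted p = 0.0244, limma), -2.22 ± 0.61 at P21 (adjusted p = 0.00793) and -2.29 ± 0.53 at P80 (adjusted p = 0.00223). The P7 call was lost without any of 7 P7 libraries (all but ES21; highest adjusted p = 0.0704). The P21 call was lost without ES13 or ES15 (highest adjusted p = 0.0522) and with the P21 libraries alone (0.149), while leaving out ES11 moved the fold change to -3.13. Without ES8, ES12 and ES16, which leaves ES14 alone in its group, it was -1.69. In the authors' deposited table Mafa did not pass at P21 (Wald test, adjusted p = 0.283).

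**Figure D3:**
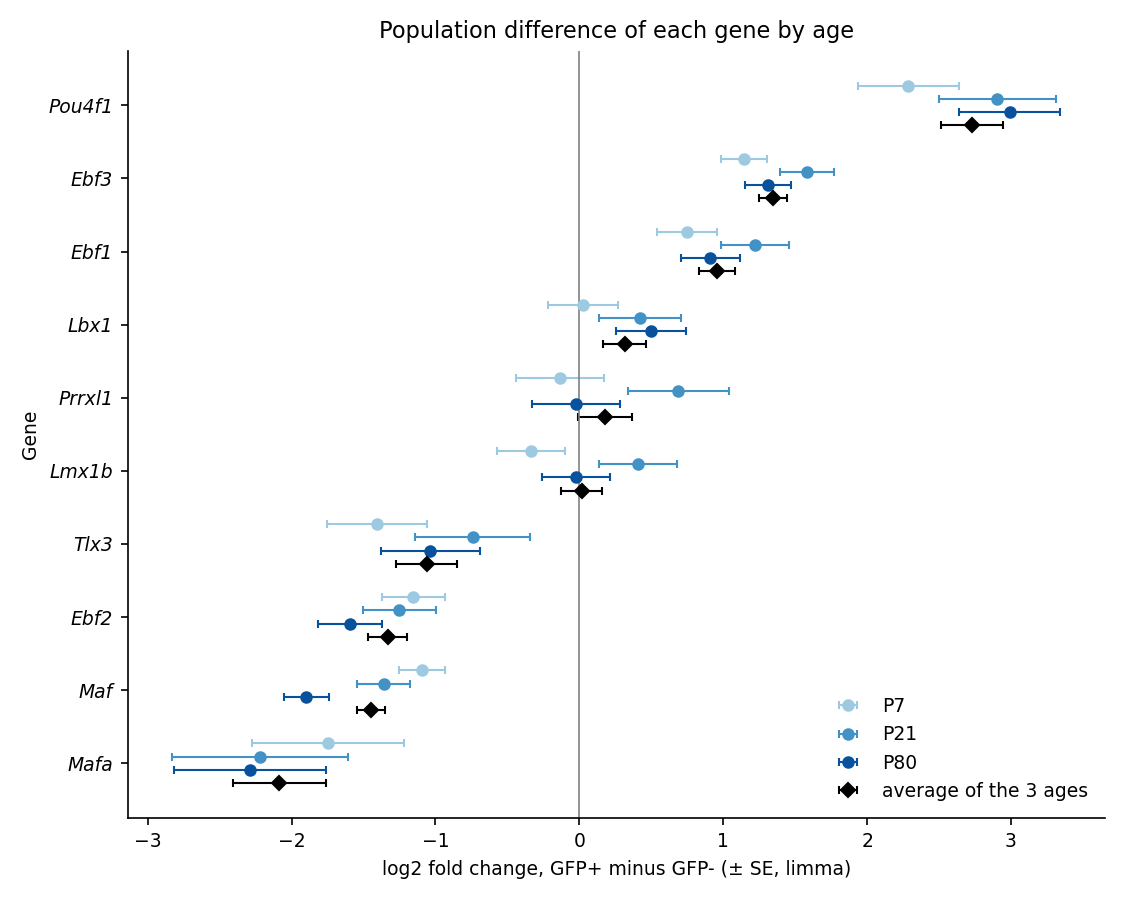
Fold change of each gene on the log2 scale, GFP+ minus GFP-, with its standard error from limma, for each age and averaged over the ages. Pou4f1, Ebf3 and Ebf1 lie right of 0 at all ages, Tlx3, Ebf2, Maf and Mafa left of it, Prrxl1 and Lmx1b on both sides of it, and Lbx1 at or right of it, between 0.03 and 0.50.

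At single ages, 7 of the 10 genes were called at P7 (3 higher, 4 lower; 17.2% of all genes, 7.06% higher and 10.1% lower), 6 at P21 (3 higher, 3 lower; 32.9% of all genes, 14.7% higher and 18.3% lower) and 7 at P80 (3 higher, 4 lower; 28% of all genes, 12.6% higher and 15.4% lower). Tlx3 was the gene missing at P21. GFP+ and GFP- libraries stood apart at all 3 ages for 5 of the 10 genes, Pou4f1 and Ebf3 above and Tlx3, Maf and Ebf2 below, where 15% of all tested genes did so, 6.62% above and 8.38% below. Over all genes, libraries stood apart either way for 28.5% (P7), 39.8% (P21) and 32% (P80). The median fold change of the 10 genes was 0.10, against -0.02 over all tested genes.

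Since GFP- nuclei include many glia, each gene was also set against the pan-neuronal score of its own library, the mean log2 level of the 14 pan-neuronal genes. This moved the averaged fold change of every gene by the same -0.71 on the log2 scale, so only spreads and p-values could change from gene to gene. On that scale 2 of the 10 genes were higher and 7 lower in GFP+ nuclei, where 4.17% of all tested genes were higher and 71.7% lower, 75.9% in all. Pou4f1 was 2.02 ± 0.17 (adjusted p = 1.51e-09, limma) and Ebf3 0.63 ± 0.09 (adjusted p = 3.82e-06), and both remained called higher. Ebf1, at 0.25 ± 0.12, did not pass (adjusted p = 0.0696), although it was called without ES19, ES4 or ES8 (lowest adjusted p = 0.0154). Lmx1b at -0.70, Prrxl1 at -0.54 and Lbx1 at -0.40 were called lower, and the shift shared by all genes had turned their signs. The median of all tested genes on this scale was -0.735. Mafa at -2.80, Maf at -2.16, Ebf2 at -2.04 and Tlx3 at -1.77, which were lower before the shift too, were also called lower.

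**Figure D4:**
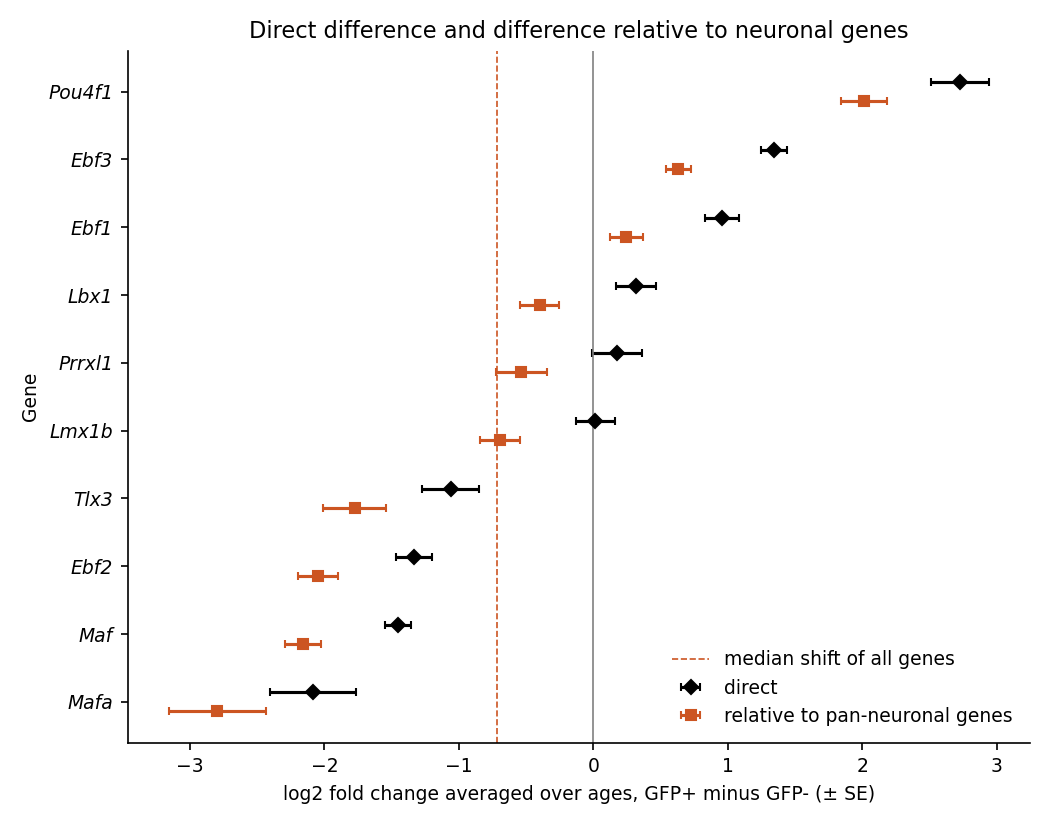
Fold change averaged over ages, GFP+ minus GFP- on the log2 scale with its standard error, as measured (black diamonds) and set against that library's pan-neuronal score (orange squares). The dashed line marks the shift that all genes share, -0.71. Pou4f1 and Ebf3 stay right of 0 on both scales.

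With age, the genes called in GFP+ nuclei were lower at the later age. From P7 to P80 most oligodendrocyte, precursor and astrocyte markers were called lower there too. From P7 to P21, 1 of the 10 genes was called, Mafa at -2.197 ± 0.57 (adjusted p = 0.0427, limma), where 2.33% of all genes were called, 0.865% higher and 1.46% lower. That call was lost with a pseudocount of 4 (adjusted p = 0.0945), in edgeR (0.197) and in DESeq2 (0.113), and in 16 of the 22 fits that left out 1 library. Between P21 and P80 none of the 10 genes was called in limma, edgeR or DESeq2, and 0 had an unadjusted p under 0.05 in limma, with 0.242% of all genes called, 0% higher and 0.242% lower. From P7 to P80, 3 genes were called lower, Maf at -0.83 ± 0.16 (adjusted p = 0.00162), Ebf2 at -0.78 ± 0.22 (adjusted p = 0.0274) and Mafa at -1.76 ± 0.53 (adjusted p = 0.0382), where 9.39% of all genes were called, 3.48% higher and 5.91% lower. The P21 and P80 comparisons with P7 share the P7 libraries. The P80 libraries did not overlap with the P7 libraries for these 3 genes, but the share of all genes for which they stand apart was not computed. In the same comparison 6 of 6 oligodendrocyte precursor markers (list median -2.94), 7 of 8 astrocyte markers (-2.29), 7 of 10 oligodendrocyte markers (-1.79), 4 of 10 endothelial and mural markers (-1.23), 2 of 8 meningeal markers (-0.81) and 0 of 10 microglial markers (-0.85) were called lower in GFP+ nuclei. Summed astrocyte markers were 1100 to 1485 in the P80 and 3282 to 4465 in the P7 GFP+ libraries, and summed precursor markers 78.2 to 129 in the P80 and 797 to 989 in the P7 GFP+ libraries. All 3 genes were lower in GFP+ than in the glia-rich GFP- nuclei, and the part of glial RNA in their decline was not tested. Ebf2 lost its call without ES17, ES21, ES23, ES1, ES5 or ES7 (highest adjusted p = 0.0842), and Mafa without ES17, ES19, ES21, ES23, ES1, ES3 or ES5 (highest 0.128) and in edgeR (0.0617).

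Ebf3 showed a small and tight decline. Its GFP+ mean was 2761 ± 106 in the 4 libraries of P7, 2076 ± 45.5 in the 3 of P21 and 1976 ± 93.5 in the 4 of P80 (SD). The P80 libraries did not overlap with the P7 libraries, again without a share over all genes to set beside it. The P80 minus P7 difference of -0.48 ± 0.16 did not pass in limma (adjusted p = 0.0621) and did in DESeq2 (0.0383), and without ES8, ES12 and ES16 (0.00121). In the authors' deposited table, the across-age test of GFP+ nuclei gave adjusted p-values of 9.14e-14 for Ebf3, 6.69e-06 for Ebf2, 0.00017 for Maf and 0.144 for Mafa. Pou4f1 differed by 0.06 ± 0.35, Lmx1b by 0.00 ± 0.23 and Tlx3 by -0.58 ± 0.35 between P80 and P7, none called.

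In GFP- nuclei, 5 of the 10 genes were called lower at P21 than at P7, where 10.1% of all genes were called, 5.03% higher and 5.07% lower. These were Prrxl1 at -1.12 ± 0.33, Lmx1b at -0.88 ± 0.25, Ebf3 at -0.85 ± 0.17, Ebf2 at -0.75 ± 0.24 and Ebf1 at -0.73 ± 0.22. Of the 22 fits that left out 1 library, 16 lost the call of Ebf2 and 8 that of Ebf1. Prrxl1 and Lmx1b lost theirs in 4 fits each, and Ebf3 in 0. With no filter Ebf2 did not pass either (limma, adjusted p = 0.0521). The P21 GFP- group holds ES12 and ES16, and none of the 5 was called without ES8, ES12 and ES16 (lowest adjusted p among them = 0.238, Ebf3), a fit in which ES14 alone stands for P21 and is assumed to vary like the other groups. In the same comparison, with all libraries, 6 of 14 pan-neuronal genes were called lower (list median -0.67) and 4 of 10 oligodendrocyte markers higher (1.17), and their part in these differences was not tested. Between P21 and P80 none of the 10 was called in limma (1 at an unadjusted p under 0.05, Lmx1b), with 1.95% of all genes called, 0.784% higher and 1.17% lower. From P7 to P80, Ebf3 at -0.65 ± 0.16 (adjusted p = 0.00721) and Lbx1 at -0.78 ± 0.25 (adjusted p = 0.0329) were called lower, with 16.3% of all genes called, 7.56% higher and 8.77% lower. Lbx1 lost the call without ES18, ES24, ES2 or ES8 (highest adjusted p = 0.119). A change of the population difference with age was called for none of the 10 genes in the test of the interaction (limma, 0 called; 1 at an unadjusted p under 0.05, Maf at 0.00593; 0 called in edgeR), where 0.951% of all genes were called. The Maf fold change at P80 minus that at P7 was -0.80 ± 0.23, with an adjusted p for the interaction of 0.174.

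Per kilobase of exon (GENCODE union length), the GFP+ libraries were ordered Ebf1, Ebf3, Pou4f1, Lmx1b, Ebf2, Lbx1, Maf, Prrxl1, Tlx3 and Mafa. The level per kilobase was 345 ± 67 for Ebf1 and 248 ± 42 for Ebf3 in GFP+ libraries (SD, n = 11). It was 36.7 ± 4.7 for Pou4f1, 30.3 ± 4.2 for Lmx1b and 27.6 ± 9.3 for Ebf2. Below them stood Lbx1 at 20.5 ± 2.9, Maf at 19.0 ± 6.3, Prrxl1 at 13.3 ± 3.3, Tlx3 at 10.1 ± 3.4 and Mafa at 1.53 ± 1.69. Neighbours in that order overlapped between libraries, apart from Ebf3 and Pou4f1, whose closest libraries were at 202 and 43.2. In GFP- libraries the order was Ebf1 (185 ± 55), Ebf3 (103 ± 35), Ebf2 (69.9 ± 21.6), Maf (50.5 ± 6.8), Lmx1b (32.4 ± 11.7), Tlx3 (23.3 ± 12.3), Lbx1 (17.3 ± 6.3), Prrxl1 (12.8 ± 4.6), Mafa (6.12 ± 3.43) and Pou4f1 (6.05 ± 2.96), with all neighbours overlapping. Pou4f1 thus followed Ebf3 in GFP+ libraries and stood last in GFP- libraries.

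The genes with the most similar profile over the 6 group means were found by the root mean square difference of centred log2 levels, among 9307 genes of at least median expression. Zic1, a zinc finger factor of the dorsal neural tube, followed Ebf3 to within 0.03 on the log2 scale, over a profile that spans 1.99. Hcrtr2, an orexin receptor gene, was nearest to Pou4f1 (0.09 over a span of 3.11), with Zmat4 and Kcnt2, a potassium channel gene, next. Lbx1 was followed by Klhl23 (0.05) and by Ebf4 (0.06), the fourth Ebf family gene. Ebf1 was nearest to Rps6kl1 (0.04), Lmx1b to Tenm2 (0.07), Prrxl1 to 9330158H04Rik (0.08), Tlx3 to Ppp3r2 (0.10) and Ebf2 to Plch2 (0.16). Maf was nearest to Mpzl1 (0.11), Mtmr10 (0.13) and S100b, a glial calcium-binding protein gene (0.13). Mafa was followed least well, by Onecut2 at 0.42.

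Among family relatives of the 10 genes, Mafg, a small Maf gene, was called higher at 0.26 ± 0.07 (adjusted p = 0.00582, limma). The shift that all genes share took Mafg to -0.45 relative to pan-neuronal genes. Ebf4 at 0.27 ± 0.12, Maff at -0.27 ± 0.31 and Mafk at -0.16 ± 0.35 did not pass. Other excitatory lineage factors split too: of 4 tested, Prdm8 at 3.21 ± 0.20 and Bhlhe22 at 2.18 ± 0.14 were higher and Skor2 at -1.005 ± 0.24 lower, and Barhl1 did not pass. Both Prdm8 and Bhlhe22, which are known to act together as repressors in neurons, are also made by inhibitory dorsal horn neurons. The inhibitory list held Bhlhe22 under its older symbol Bhlhb5, which was not found, so the gene is counted on the excitatory list alone.

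Of 8 tested inhibitory lineage factors, 5 were higher in GFP+ nuclei and 2 lower, with a median fold change of 1.48 against -0.02 over all genes. Skor1 at 3.16 ± 0.16, Pax8 at 3.12 ± 0.23 and Pax2 at 2.18 ± 0.33 were highest, and Gbx2 at -0.95 ± 0.29 and Lhx1 at -0.76 ± 0.22 were lower. Pax3, a paired homeodomain factor of dorsal progenitors, was lower at -2.89 ± 0.20. The 17 effector genes of excitatory dorsal horn neurons had a median of -0.83, with 5 higher and 9 lower. Tacr3 at 2.58 ± 0.12, Gpr83 at 1.34 ± 0.22 and Tacr1 at 1.06 ± 0.23, receptor genes of which Tacr3 and Tacr1 serve tachykinins, were highest. The neuropeptide genes Nmu at -2.92 ± 0.24, Nts at -2.58 ± 0.22 and Grp at -1.799 ± 0.37 were lowest. Slc17a6, the vesicular glutamate transporter of excitatory dorsal horn neurons, was at 0.38 ± 0.11 (adjusted p = 0.00593, limma). The shift that all genes share took Slc17a6 to -0.33 relative to pan-neuronal genes.

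**Figure D5:**
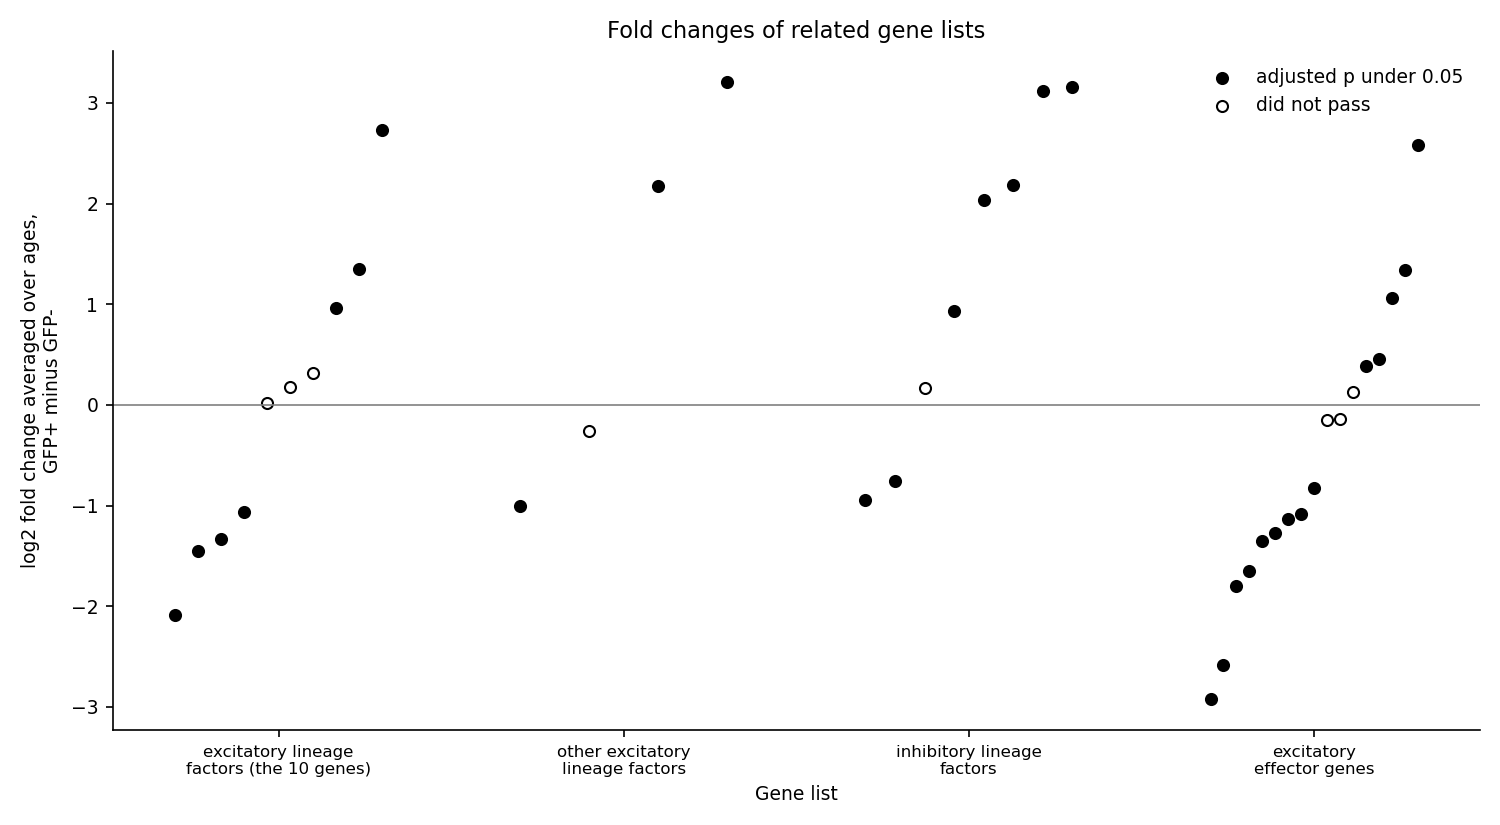
Fold change averaged over ages, GFP+ minus GFP- on the log2 scale, of each tested gene in 4 lists; filled points had an adjusted p under 0.05 in limma and open points did not. The 10 lineage factors span from -2.09 (Mafa) to 2.73 (Pou4f1), and 5 of 8 inhibitory lineage factors lie above 0 and passed the test.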

How the data were processed

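Nuclear RNA of GFP+ and GFP- nuclei sorted from the lumbar dorsal horn was sequenced after 15 cycles of amplification, per the labels' protocols. Per the submitters' processing notes, DESeq2, HTSeq, STAR, cutadapt and Trim Galore were used, with no version or role stated; build, annotation and strand setting are likewise not given in the sources used here. Deposited normalized values are a signal, the authors' read counts per gene over a library's size factor, and 100% of values are whole multiples of a library's step (tolerance 0.01), so that whole reads could be recovered. The authors' own log2 fold changes and p-values (Wald test, per the file headers) are used only where named.

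Columns carry library codes; the authors' sheets for single ages gave the age, and population came from their table of GFP+ nuclei. The design had both populations of each animal, but codes could not be joined to animals or to the labelled sexes. The filter kept genes that reached 10 in 3 or more of 22 libraries (18614 of 21363, including all 10 members). Mafa passed it only through GFP- libraries, where it was higher, since among GFP+ libraries it reached 10 in ES21 alone. A limma fit (3.58.1, R 4.3.3, trend and robust) of 6 group means to log2(value + 1) gave contrasts with Benjamini-Hochberg adjusted p-values, tested on simulated data. This scale understates the change of low genes. Fits relative to neurons subtracted each library's mean log2 level of 14 pan-neuronal genes. Ratios within libraries used exact permutation within ages, which did not keep the libraries of an animal paired. Alternatives were a pseudocount of 4, no filter, edgeR (4.0.16) and DESeq2 (1.42.0) on recovered reads, only 1 age, leaving out each library and, added after seeing the data, leaving out ES8, ES12 and ES16 together. Reads per library ran from 4244987 to 10849169; intervals of counting error are not given, and PCR reads are not independent molecules.

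The members and the 14 other lists were chosen with earlier results of these data known. All members are named; in each list the 3 highest and 3 lowest called genes, every tested family relative, up to 3 nearest genes per member, and Pdyn, apart from a few genes that are not reported here.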

Additional observations from a re-analysis of the deposited data

Results flagged for a closer look

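In 40 groups of 4 libraries (10 genes, P7 and P80, both populations), 2 held a library far from the other 3, about as many as chance flags at 1 in 20. Both concern Mafa in GFP+ nuclei. At P7, library ES21 had 15.9 in normalized read count, against 5.47 to 6.59 in the other 3. At P80, library ES7 had 3.5, against 1.04 to 1.24 in the other 3, which rests on 4 reads against 1 in each of the others.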

How the results depend on the processing

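Averaged over ages, the 7 called genes kept their direction and their call under each alternative and in each of 22 fits that left out 1 library, which called 7 to 8 of the 10. Of the 3 genes not called, Lmx1b (0.02 with all libraries) changed sign without ES8, ES12 and ES16 (-0.17), in edgeR (-0.01), in DESeq2 (-0.02) and in 4 of the 22 fits, down to -0.09, and Prrxl1 changed sign without ES8, ES12 and ES16 (-0.11). Leaving out 1 library gave 5 to 7 called members at P7, 5 to 7 at P21, 6 to 7 at P80 and 9 to 10 relative to neurons. Within GFP+ nuclei it gave 0 to 2 (P21 minus P7), 0 to 0 (P80 minus P21) and 1 to 4 (P80 minus P7). Within GFP- nuclei it gave 1 to 7, 0 to 2 and 1 to 3 in the same order, and 0 to 0 for the interaction.

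Of members in GFP+ nuclei, P21 minus P7, 0 were called with a pseudocount of 4 and in edgeR, against 1. Without ES8, ES12 and ES16, 4 were called there and 0 in GFP- nuclei (P21 minus P7, against 5). In GFP- nuclei, P80 minus P7, 4 were called with a pseudocount of 4 and in DESeq2, against 2. The cause was not tested.

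Counts over all genes moved more. Leaving out 1 library gave 8458 to 9418 averaged over ages, 13603 to 14706 relative to neurons, 2248 to 4134 at P7, 4828 to 7339 at P21 and 3897 to 6185 at P80. It gave 188 to 799, 3 to 84 and 1083 to 2614 in GFP+ nuclei for P21 minus P7, P80 minus P21 and P80 minus P7. In the same order it gave 981 to 3892, 174 to 2637 and 2276 to 4056 in GFP- nuclei, and 67 to 440 for the interaction. Without ES8, ES12 and ES16 the counts were 5648 (P7), 2893 (P21), 1729, 218 and 3867 (GFP+ ages), 808, 72 and 4621 (GFP- ages) and 538 (interaction). With the libraries of 1 age they were 5154 at P7 and 2729 at P21. In GFP+ nuclei, P21 minus P7, DESeq2 called 700; for P80 minus P21 a pseudocount of 4 gave 22, edgeR 5 and DESeq2 73. In GFP- nuclei, edgeR and DESeq2 called 3160 and 3688 for P21 minus P7 and 1334 and 1977 for P80 minus P21.

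No paired analysis was possible because the columns carry library codes that do not say which libraries share an animal; the fit with a replicate block was not run. Depth limits Mafa most, with 0 to 13 reads per GFP+ library, and Tlx3 next, with 5 to 34.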
